A study of Mus musculus with 6 samples.

Results

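The collagen genes and the enzymes that modify and cross-link collagens were followed in 344SQ, a cell line from a lung adenocarcinoma of a mouse. Members were the probe sets annotated to a single gene symbol, where that symbol is a collagen chain, a lysyl oxidase or a lysyl hydroxylase. The prolyl 4-hydroxylase alpha subunits P4ha1 and P4ha2 were members too, and P4ha3 was not. The rule works on symbols and not on measured values, but it was set with earlier results of these data known. It gave 96 of 45037 probe sets and 50 of 18193 genes, of which 41 are collagens and 9 are enzymes, and the probe set with the highest mean signal over the 6 arrays stood for its gene. Loxl2 shares both of its probe sets with another symbol and was not used here, and 1 collagen chain was left out by the rule.

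The line came from a subcutaneous metastasis in a p53R172H∆g/+ K-rasLA1/+ mouse and were kept as a mass population in culture. A lentivirus brought in the miR-200b-200a-429 cluster or, for the controls, the vector without it, and pools positive for GFP were selected under puromycin. Each kind was grown as 3 cultures and each culture gave 1 array, called here miR-200 A, B and C and control A, B and C. Both kinds share the mutant p53 and K-ras alleles, the GFP and the puromycin, and the sources used here do not name the promoter of the cluster in the vector. Nothing in the labels says that cultures of a kind came from separate transductions, so the p-values speak only to how much these cultures varied, which may be technical. A fixed difference between the pools cannot be told apart from an effect of the microRNAs, and less RNA per cell cannot be told apart from fewer cells that make it.

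Collagens are trimers of chains built from repeats of glycine and 2 further residues. In the endoplasmic reticulum prolyl 4-hydroxylases make the triple helix stable at body temperature, and lysyl hydroxylases mark the lysines that later carry sugars or cross-links. After secretion the lysyl oxidases, which need copper, oxidize lysines so that fibrils become cross-linked and stiff. Fibrillar collagens are mainly products of fibroblasts, whereas epithelial cells lay down type IV collagen in their basement membrane. Fibrillar collagen and its cross-linking are known to rise around many lung tumours.

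The 3 mature microRNAs that the vector adds are shown because their seeds, bases 2 to 8 in capitals, set which transcripts they bind. The sequences are from RefSeq (GRCm38.p6).
mmu-miR-200b-3p: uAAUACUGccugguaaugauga
mmu-miR-200a-3p: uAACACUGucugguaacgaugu
mmu-miR-429-3p: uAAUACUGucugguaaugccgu
The seed AAUACUG is shared by miR-200b and miR-429, and miR-200a carries AACACUG. All 3 lie on chromosome 4, on the minus strand, with miR-200b at chr4:156055685-156055706, miR-200a at chr4:156054911-156054932 and miR-429 at chr4:156053916-156053937. Sites for these seeds in collagen transcripts were not analysed here.

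Most of these genes did not differ past the threshold between miR-200 and control cultures. Values are log2 signals after quantile normalization, each difference subtracts the control mean from the miR-200 mean and carries its standard error (limma), and the threshold is a Benjamini-Hochberg adjusted p of 0.05 over all 45037 probe sets. One member passed, Col14a1, which was lower, and 0 passed as higher. Of all genes 0.945% passed, 0.671% as lower and 0.275% as higher. At an unadjusted p under 0.05 in limma, 3 members were higher and 5 lower. That makes 8 of 50, set against 14.8% of all genes. The groups did not overlap for 10 members, set against 23.5% of all genes. Of these 4 were higher and 6 lower, set against 11.4% and 12.1%. Counted by probe set, 16 of 96 had groups that did not overlap, set against 21.3% of all probe sets. The median log2 change was 0.11 over the members and 0.0014 over all genes. The median size of the change was 0.26 and 0.25 log2, so these genes moved about as far as the array as a whole. As a level for background, the highest value of the bacterial trp control probe sets was taken, 5.28. The mean of 16 members over the 6 arrays lay under it, and of the 34 others 1 passed, set against 1.14% of the 13344 genes above it. Among the same 34, 9 had groups that did not overlap (27.7% of those genes) and 7 had an unadjusted p under 0.05 (16.7%).

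**Figure D1:**
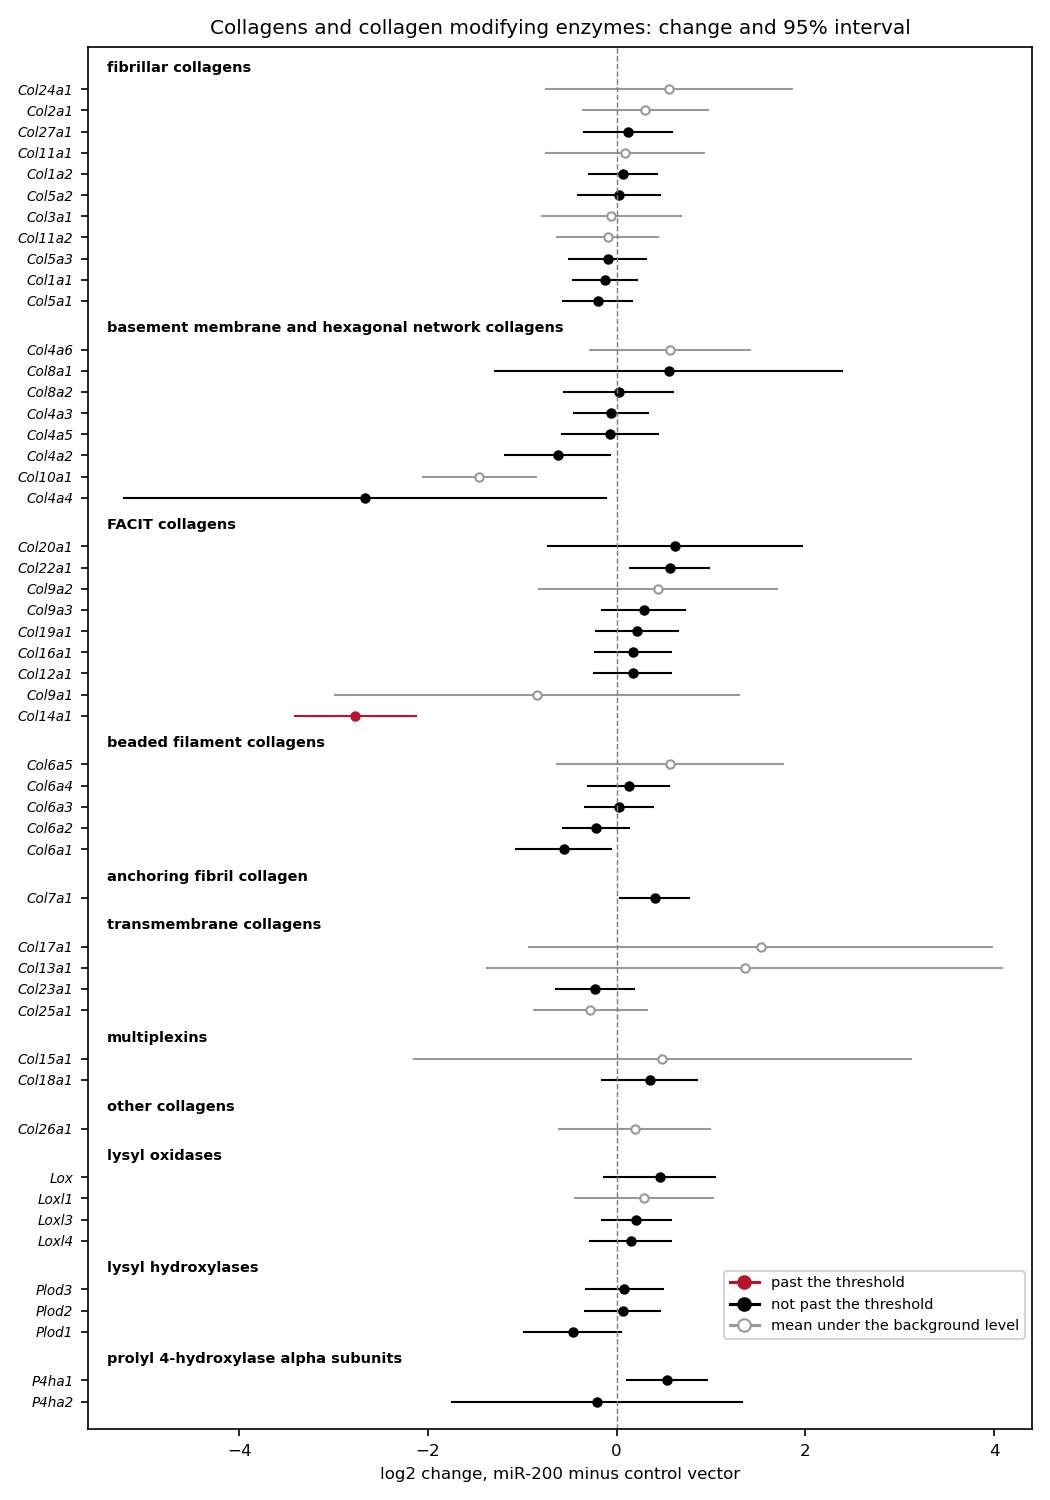
The log2 change of all 50 members, miR-200 minus control, on the horizontal axis, with the 95% interval of the limma fit, ordered by structural class. Red marks Col14a1 at -2.77, the member past the threshold, and open grey points are genes whose mean lies under the background level. Most of the other points lie close to 0, and the widest intervals belong to dim genes and to Col4a4 and Col8a1.

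The arrays bear on what follows in 3 ways. The 5 epithelial markers were bright on every array, with Cdh1 between 13.23 and 13.46 in miR-200 cultures and between 13.14 and 13.38 in controls. Together these 5 gave a summed linear signal of 44904 to 46210 in miR-200 and 46440 to 49439 in control cultures, without overlap. Krt19 differed by -0.39 and Epcam by 0.42, each without overlap, and neither passed (limma, adjusted p = 0.315 and 0.344). Of 5 lung markers, Sftpc and Scgb1a1 lay under the background level on every array. The summed linear signal of those 5 was 2028 to 2147 in miR-200 and 10540 to 13188 in control cultures. Sftpb and Aqp5 were lower, by -6.03 and -1.46 (limma, adjusted p = 0.00249 and 0.0148). Nkx2-1 had overlapping groups and differed by -0.19 (adjusted p = 0.746). Of 8 fibroblast and pericyte markers, 3 had a mean above background, and Pdgfrb was at most 2.41 on any array. The summed linear signal of these was 343 to 370 in miR-200 and 275 to 332 in control cultures, which do not overlap. Rgs5 and Des, the brightest of these markers, differed by 0.37 and 0.35, only Thy1 was lower (-0.02), and none of the 8 passed. The part of the sums in the results was not tested. For the endothelial markers the sums were 222 to 255 against 189 to 217, also without overlap. Of these 4 markers 2 had a mean above background, and each marker taken alone had overlapping groups. The sums were 156 to 596 against 179 to 571 for the leukocyte markers. Control B and miR-200 A stand apart from the other cultures of their groups. The deviations of these arrays from their group means correlated at 0.71 across 27022 probe sets, which describes arrays that share the normalization. For Col4a3, Col4a4, Col4a5, Col8a1, Col14a1, Col20a1 and P4ha2, values without both arrays are also given.

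Col14a1, a FACIT collagen that sits on the surface of type I collagen fibrils and limits their width, fell. Its log2 signal was 5.84, 5.86 and 5.62 in miR-200 A, B and C, against 8.89, 8.03 and 8.70 in control A, B and C. The lowest control value lay more than 2 log2 units above the highest miR-200 value, and all 3 miR-200 values were just above the background level. The means were 5.77 ± 0.13 in miR-200 and 8.54 ± 0.45 in control cultures (SD, n = 3 each). The difference was -2.77 ± 0.26, or 6.81-fold lower (limma, adjusted p = 0.0201). The gene lies at chr15:55307644-55520803 (GRCm38.p6). Its other probe sets were under background in both groups. The brighter of these had means of 3.78 and 4.34 in miR-200 and control cultures (adjusted p = 0.375), and the other read 0 on every array except control B, where it read 1.78. The mean of its 3 probe sets differed by -1.31 (adjusted p = 0.0230 over genes). The call was kept without control B (adjusted p = 0.0236) and lost without control A, control C, miR-200 A, miR-200 B or miR-200 C, with adjusted p between 0.0584 and 0.124. Without control B and miR-200 A together the difference was -3.07 (adjusted p = 0.0541).

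The 8 other FACIT collagens, which attach to fibrils by short helices with interruptions, did not pass. Col22a1, a collagen of tissue junctions such as that of muscle and tendon, read 8.58, 8.54 and 8.53 in the miR-200 cultures and 7.73, 7.999 and 8.24 in the controls. All miR-200 values lay above all control values, by 0.56 ± 0.17 in the means (adjusted p = 0.243). Its dimmer probe sets, both under background, gave 0.06 and -0.41. Col20a1 read 5.85, 7.40 and 7.82 in miR-200 A, B and C and 6.55, 6.08 and 6.59 in control A, B and C. On this brightest probe set the groups overlapped because miR-200 A was the lowest of all 6. The difference was 0.62 ± 0.54 (limma, adjusted p = 0.667), or 1.05 without miR-200 A and control B (adjusted p = 0.140). The 3 dimmer probe sets of Col20a1, with means above background, had overlapping groups and gave -0.15, 0.12 and 0.33. On none of them was miR-200 A the lowest array. For Col12a1, Col16a1, Col19a1 and Col9a3 the differences ran from 0.17 to 0.29, with adjusted p from 0.533 to 0.692. Col12a1, the closest relative of Col14a1 in structure, differed by 0.17 ± 0.16 with a 95% interval from -0.24 to 0.57. Its means were 7.77 ± 0.21 in miR-200 and 7.60 ± 0.12 in control cultures. Of its 3 dimmer probe sets 1 gave 0.02. The other 2, under background in both groups, gave -1.86 with groups that did not overlap (adjusted p = 0.158) and -1.34 (adjusted p = 0.430). Col9a1 and Col9a2, cartilage collagens, were under background.

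Type IV collagen is the sheet of the basement membrane, and its chains did not behave alike. Col4a2, a chain of the trimer found in nearly all basement membranes, read 9.97, 10.51 and 10.67 in miR-200 cultures and 11.15, 10.86 and 11.01 in controls. Every miR-200 value was lower than every control value, but the difference of -0.62 ± 0.22 did not pass (adjusted p = 0.307). Col4a3, Col4a4 and Col4a5 encode the chains of a second trimer, known from the glomerulus of the kidney and the alveoli of the lung. The brightest probe set of Col4a4 read 5.74, 4.19 and 3.59 in miR-200 A, B and C, against 6.51, 9.16 and 5.83 in control A, B and C. The groups did not overlap, yet control B was more than 2 log2 units above the other controls. The difference of -2.66 ± 1.02 did not pass (adjusted p = 0.338), and the miR-200 mean of 4.50 lies under background. The other 2 probe sets of Col4a4 gave -1.49 and -2.57 and also had groups that did not overlap (adjusted p = 0.481 and 0.391).

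The probe sets of Col4a5 and Col4a3 disagreed. For Col4a5 the brightest read 9.19, 9.39 and 9.16 in miR-200 A, B and C and 9.12, 9.14 and 9.69 in control A, B and C, a difference of -0.07 ± 0.20 (adjusted p = 0.912). The other read 9.25, 7.05 and 6.43 in the miR-200 cultures and 8.94, 10.34 and 8.83 in the controls. It was highest in miR-200 A and in control B within their groups, and differed by -1.79 (adjusted p = 0.416). Without both of those arrays it differed by -2.15 (adjusted p = 0.104). Col4a4 differed by -2.28 without them (adjusted p = 0.127). With a 2-level term for the 2 arrays, which understates p because the arrays were picked on expression, the adjusted p was 0.0756 for that Col4a5 probe set and 0.0553 for Col4a4. Col4a3 read 7.75 ± 0.10 in miR-200 and 7.81 ± 0.20 in control cultures on its brightest probe set. Its other probe set read 8.26 in control B and at most 5.11 on the other 5 arrays, a difference of -1.98 (adjusted p = 0.557), or -1.08 without control B and miR-200 A (adjusted p = 0.476). Control B was thus the highest array for a probe set of each of the 3 chains.

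Col4a3 and Col4a4 are neighbours that lie head to head on chromosome 1, and their RefSeq gene extents overlap by 114 bases. The extent of Col4a4, on the minus strand, reaches base 82587034, and that of Col4a3 begins at base 82586921. The promoter table places the start of Col4a4 further inside that extent, at base 82586849. The 250 bases before the table's start, chr1:82586850-82587099 on the minus strand (RefSeq, GRCm38.p6), are printed because they hold the stretch that both genes share. Of these bases 185 lie within the Col4a4 extent. A CAGGTG motif, in capitals, begins 169 bases before the table's start and lies inside the extent, at chr1:82587013-82587018.
Col4a4 promoter: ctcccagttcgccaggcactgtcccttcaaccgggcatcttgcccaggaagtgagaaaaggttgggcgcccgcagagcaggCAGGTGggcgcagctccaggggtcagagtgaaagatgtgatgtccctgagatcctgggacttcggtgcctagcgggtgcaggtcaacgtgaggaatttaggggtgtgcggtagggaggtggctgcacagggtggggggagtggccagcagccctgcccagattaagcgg
CAGGTG, with its reverse complement CACCTG, is the E-box known to be bound by the Zeb and Snail repressors. Of these repressors, the Zeb genes are known targets of the miR-200 family. Promoter windows, 250 bases before to 50 after a start, were matched by symbol for 37 of the 50 members. The motif was in 5 of these 40 windows (12.5%) and in 20.2% of all 32851 windows. The 5 belong to Col4a4, Col6a5, Col8a1, Col9a2 and Col16a1, none of which passed. Col14a1 was not matched.

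**Figure D2:**
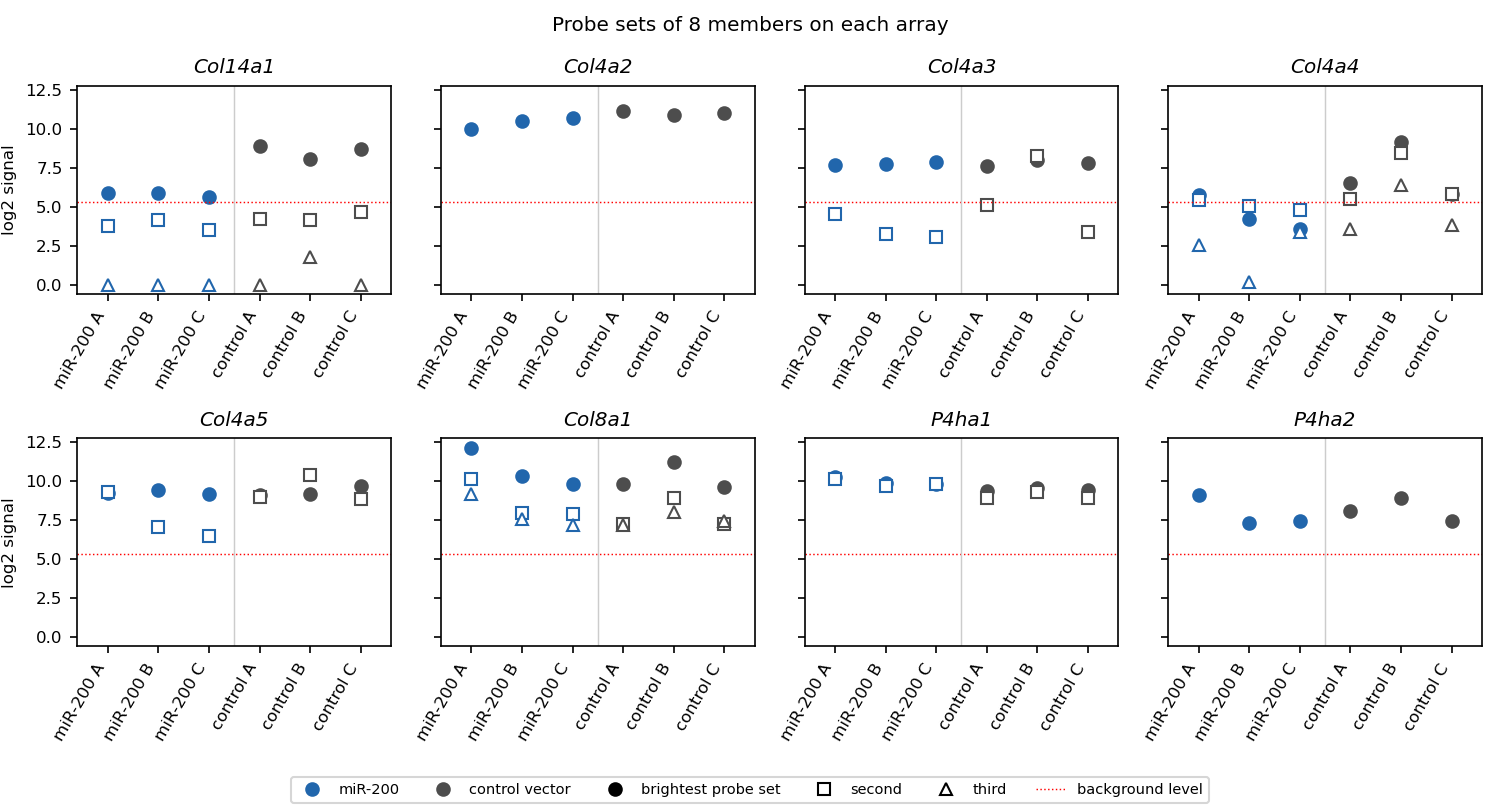
Log2 signal of every probe set of 8 members on each array, with miR-200 cultures in blue to the left of control cultures in grey. Filled circles are the brightest probe set, open squares and triangles the dimmer ones, and the dotted line is the background level of 5.28. Col14a1 separates the groups, the probe sets of Col4a5 part ways, and Col8a1 and P4ha2 are highest in miR-200 A and control B.

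Of the other network collagens, Col8a1 varied most between cultures of a kind. This chain of a hexagonal network, known from vessel walls and the cornea, read 12.12, 10.31 and 9.82 in miR-200 A, B and C and 9.79, 11.20 and 9.62 in control A, B and C. The highest value of each group was miR-200 A and control B, and the difference of 0.55 ± 0.74 did not pass (adjusted p = 0.788). Its other 2 probe sets were also highest in those arrays, the brighter of them at 10.11 in miR-200 A and 8.89 in control B. Without both arrays the brightest differed by 0.36 (adjusted p = 0.454). Cd68, a lysosomal marker of macrophages, read 8.98 in miR-200 A and 8.87 in control B and at most 6.81 elsewhere, and its part was not tested. The other leukocyte markers measured did not share this pattern, but all of them were dim. Ptprc was highest of the controls in control B (5.91) but read 5.44 in miR-200 A and 5.75 in miR-200 B. Itgam and Cd3e were highest of their groups in neither array. Itgam was under background on every array, Cd3e had a mean of 5.09, also under it, and Ptprc a mean of 5.55. Signals this close to background can say little about the pattern. Col8a2, the partner chain, differed by 0.02 ± 0.23. Col4a6 and Col10a1 were under background on every array except 1 for Col4a6, miR-200 B, at 5.30. Col10a1, a marker of hypertrophic cartilage, sat at the floor of 0 in all miR-200 cultures and at 1.01, 1.89 and 1.46 in the controls, so it gives no fold.

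The fibrillar collagens gave no call in either direction, with 0 of 11 also at an unadjusted p under 0.05 in limma, and the groups of all 11 overlapped. The chains of type I collagen, the main protein of scar and bone, were Col1a2 with 7.84, 7.53 and 7.50 in miR-200 and 7.54, 7.53 and 7.61 in control cultures, and Col1a1. Col1a1 read 5.69, 5.92 and 5.84 in miR-200 and 5.82, 5.95 and 6.06 in control cultures, close to the background level. The 95% intervals of the differences were -0.30 to 0.43 for Col1a2 and -0.47 to 0.22 for Col1a1. Col5a1, which starts fibrils of type I collagen, had a mean of 8.78 ± 0.12 in miR-200 and 8.98 ± 0.16 in control cultures, a difference of -0.20 ± 0.15 (adjusted p = 0.607). Col5a2 read 6.20, 6.03 and 6.47 in miR-200 and 6.02, 6.31 and 6.28 in control cultures. Col5a2, Col5a3 and Col27a1 differed by 0.03, -0.10 and 0.12. Col3a1, the partner of type I collagen in soft tissue, was under background on all 6 arrays, at 4.37, 4.05 and 4.57 in miR-200 and 4.89, 3.90 and 4.38 in control cultures. It neighbours Col5a2 on chromosome 1, with 24624 bases between them. Col2a1, Col11a1, Col11a2 and Col24a1 also had means under background.

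Among the beaded filament collagens, which form a mesh around cells, Col6a1 read 6.98, 6.44 and 6.92 in miR-200 and 7.14, 7.47 and 7.42 in control cultures. Its groups did not overlap and the difference was -0.56 ± 0.20 (adjusted p = 0.309). Its partner chains Col6a2 and Col6a3 differed by -0.22 ± 0.14 and 0.03 ± 0.15, and the groups of both overlapped. Col6a4 differed by 0.13, and Col6a5 had a mean under background. Col6a1 and Col6a2 lie 85161 bases apart on chromosome 10. Col7a1, which anchors epithelia to the tissue beneath, read 9.15, 8.92 and 8.80 in miR-200 and 8.48, 8.64 and 8.53 in control cultures. These groups did not overlap either, and the difference was 0.40 ± 0.15 (adjusted p = 0.314). Col18a1, the source of the angiogenesis inhibitor endostatin, read 10.87, 10.43 and 10.50 in miR-200 and 10.33, 10.46 and 9.97 in control cultures. Its difference was 0.35 ± 0.20 (adjusted p = 0.504), and a dimmer probe set gave 0.49 with groups that did not overlap (adjusted p = 0.294). Of the transmembrane collagens, Col23a1 differed by -0.23 ± 0.16, and Col13a1, Col17a1 and Col25a1 had means under background, as had Col15a1 and Col26a1.

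**Figure D3:**
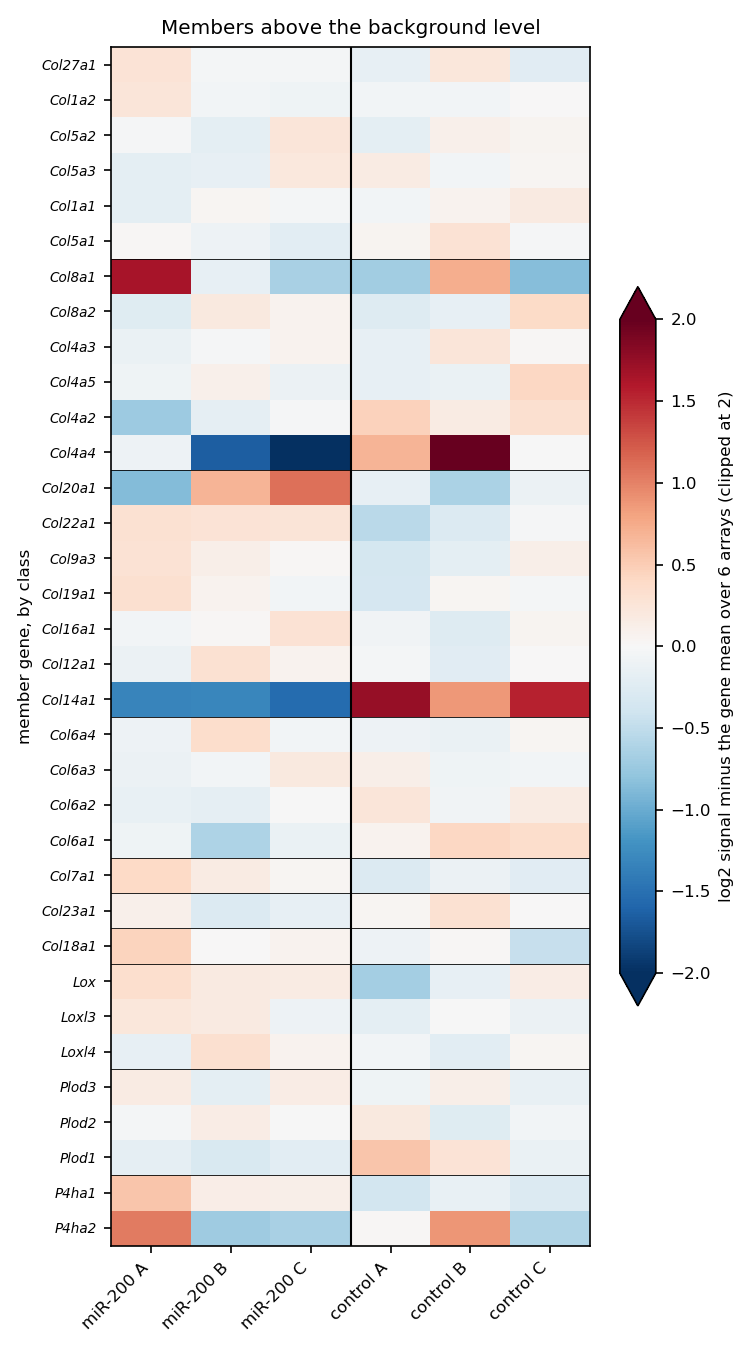
Log2 signal of the 34 members above the background level minus the mean of that gene over the 6 arrays, clipped at 2, with miR-200 cultures left of control cultures and genes grouped by class. Col14a1 is low in all miR-200 and high in all control cultures, whereas Col8a1, Col4a4 and P4ha2 also vary within the groups.

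Members with large spread within a group were few. Over the members above background the median SD was 0.19 in miR-200 and 0.17 in control cultures, against 0.21 and 0.19 for all genes above it. Of these 34 members, miR-200 A held the highest miR-200 value for 18 (52.9%) and control B the highest control value for 15 (44.1%), against 43% and 40.5% of all genes above background. Several probe sets were present for 32 members, and for 21 of them the differences lay on both sides of 0.

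None of the 9 enzymes passed in limma, and at an unadjusted p under 0.05 there was 1, P4ha1. P4ha1, the main catalytic subunit of prolyl 4-hydroxylase, read 10.25, 9.84 and 9.82 in miR-200 A, B and C and 9.34, 9.55 and 9.43 in control A, B and C. Every miR-200 value lay above every control value, and the difference was 0.53 ± 0.17 (adjusted p = 0.265). Its second probe set read 10.13, 9.64 and 9.80 against 8.92, 9.31 and 8.90, again without overlap, a difference of 0.81 (adjusted p = 0.173). With the 2-level term for control B and miR-200 A that second probe set passed (adjusted p = 0.0440) and the first did not (adjusted p = 0.0992). P4ha2, another alpha subunit, read 9.07, 7.33 and 7.39 in the miR-200 cultures and 8.07, 8.92 and 7.43 in the controls. Like Col8a1 it was highest in miR-200 A and control B, and the difference was -0.21 ± 0.62 (adjusted p = 0.917). Without both arrays it was -0.39 (adjusted p = 0.497).

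The lysyl hydroxylases differ in the part of the collagen they act on. Plod1, which hydroxylates the triple helix, read 7.69, 7.56 and 7.66 in miR-200 and 8.43, 8.15 and 7.73 in control cultures. Its groups did not overlap, with a gap under 0.1 between miR-200 A and control C, and the difference was -0.47 ± 0.21 (adjusted p = 0.394). Its other probe set differed by 0.07. Plod2, which hydroxylates the ends of the chains and so sets the stable kind of cross-link, read 9.15, 9.33 and 9.17 in miR-200 and 9.38, 8.95 and 9.13 in control cultures. The 95% interval of its difference was -0.33 to 0.46 and that of Plod3, which also adds sugars, was -0.32 to 0.49. Plod3 read 8.95, 8.60 and 8.93 in miR-200 and 8.70, 8.90 and 8.63 in control cultures.

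Of the lysyl oxidases, Lox read 6.30, 6.16 and 6.14 in miR-200 and 5.30, 5.81 and 6.13 in control cultures. The groups met within 0.1 of each other without overlap, and the difference was 0.46 ± 0.24 (adjusted p = 0.460). Its second probe set gave -0.12. Loxl3 and Loxl4 had overlapping groups and differed by 0.21 ± 0.15 and 0.15 ± 0.17, with 95% intervals from -0.16 to 0.57 and from -0.28 to 0.58. Loxl3 read 7.99, 7.94 and 7.66 in miR-200 and 7.57, 7.75 and 7.65 in control cultures. Loxl4 read 8.20, 8.68 and 8.43 in miR-200 and 8.31, 8.15 and 8.40 in control cultures, and its dimmer probe set gave -0.20. Loxl1, known for its part in elastic fibres, had a mean under background, with 5.91, 5.19 and 5.03 in miR-200 and 4.78, 5.09 and 5.39 in control cultures.

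Genes that act on or with collagens were taken from a list of 53, of which 48 were measured. Past the threshold 2 were lower and 0 higher, set against 0.671% and 0.275% of all genes, and the median difference was -0.06. P3h4, which in mouse joins the prolyl 3-hydroxylase P3h3 and the Plod1 enzyme in a complex of the endoplasmic reticulum, read 8.30, 8.20 and 8.14 in miR-200 and 9.45, 9.39 and 9.32 in control cultures. It was 2.26-fold lower, by -1.17 ± 0.12 (adjusted p = 0.0279). Itga1, the alpha chain of a collagen-binding integrin, read 7.92, 7.57 and 7.46 in miR-200 and 9.47, 9.24 and 9.46 in control cultures. It was 3.34-fold lower, by -1.74 ± 0.17 (adjusted p = 0.0250), and its dimmer probe set gave -1.73 (adjusted p = 0.0990). Both calls were kept without miR-200 A and lost without any other single array and without control B and miR-200 A together. The beta chain that pairs with Itga1, Itgb1, read 11.68, 11.41 and 11.71 in miR-200 and 10.63, 10.85 and 10.73 in control cultures, a difference of 0.86 ± 0.15 in the other direction that did not pass (adjusted p = 0.0896).

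By role, 1 of 14 folding and modifying genes passed, 1 of 7 receptors, and 0 of 8 export, 0 of 6 processing, 0 of 11 fibril partner and 0 of 2 copper genes. At an unadjusted p under 0.05 in limma, 2 genes of the list were higher and 8 lower, 10 of 48, set against 14.8% of all genes. The folding genes had 1 higher and 2 lower, and the receptors 1 higher and 1 lower. The export genes had 2 lower, the processing genes 1, the fibril partners 2 and the copper genes 0, with 0 higher in these roles. Pcolce, which speeds removal of the procollagen tail, read 9.82, 9.80 and 9.46 in miR-200 and 10.84, 10.68 and 10.87 in control cultures, a difference of -1.10 ± 0.16 (adjusted p = 0.0607). Sparc, a collagen-binding protein, read 9.68, 10.09 and 9.78 in miR-200 and 11.68, 11.04 and 11.55 in control cultures, a difference of -1.57 ± 0.22 (adjusted p = 0.0615). Neither gene had overlapping groups. Thbs1, a matrix protein, differed by 1.47 ± 1.04 with miR-200 A and control B highest in their groups, and by 1.94 without both (adjusted p = 0.126). The prolyl 3-hydroxylase P3h2 differed by 0.58 ± 0.18. Of the export genes, the coat gene Sec24d differed by -0.72 ± 0.24 and the cargo receptor gene Mia2 by 0.37 ± 0.17. Atox1, which carries copper towards the secretory pathway, differed by 0.27 ± 0.23. Of the genes named by role, P3h4 and Itga1 passed and the others did not.

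**Figure D4:**
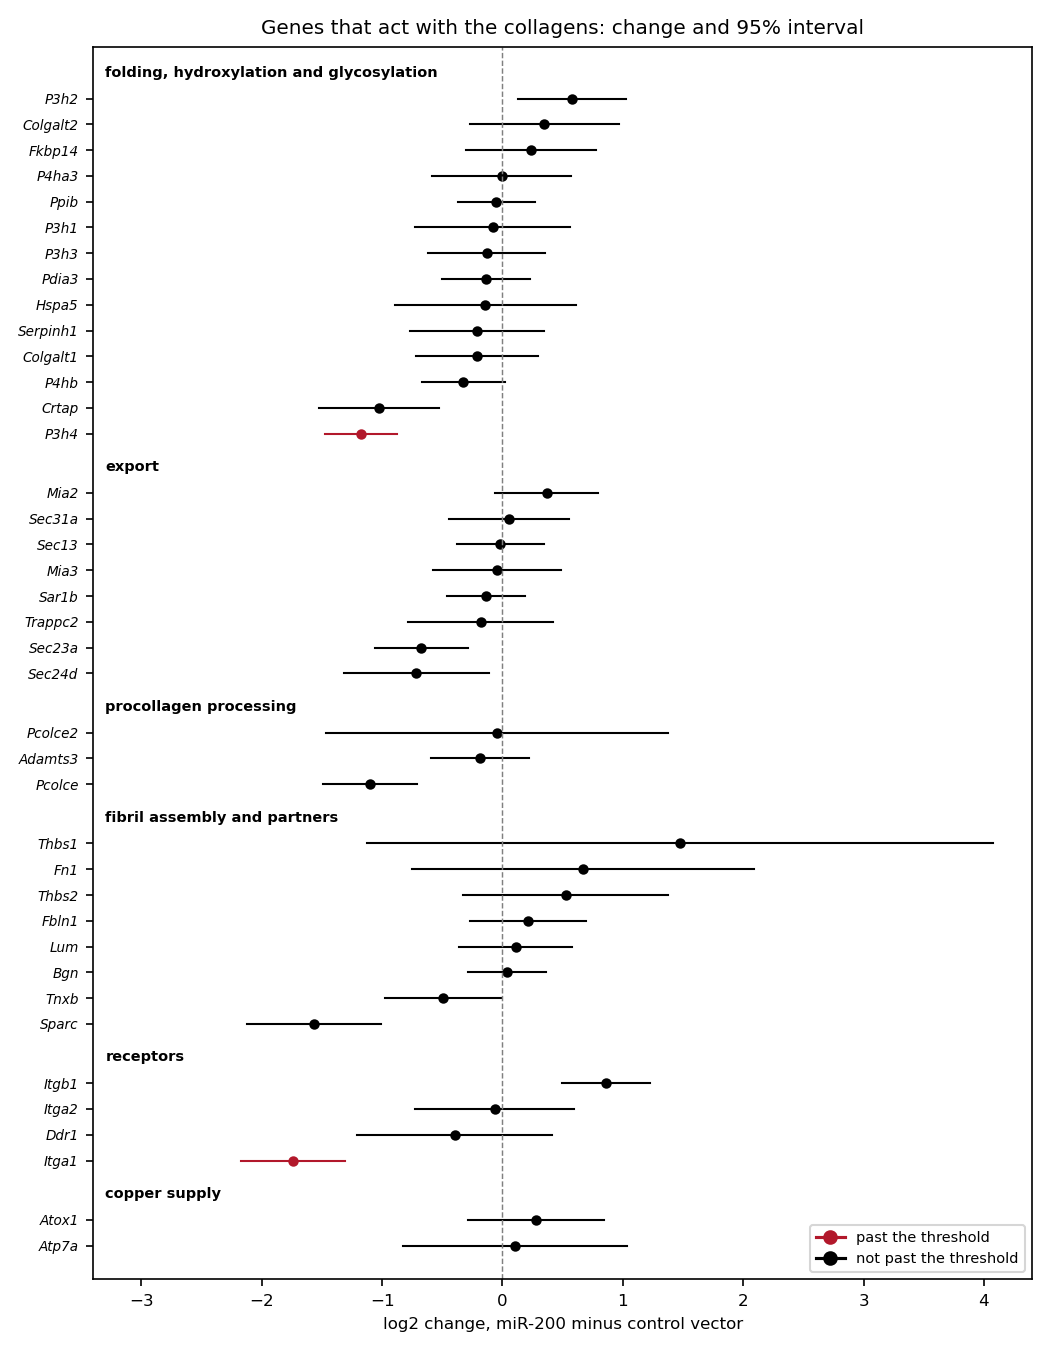
The log2 change, miR-200 minus control, of the 39 genes of the collagen pathway above the background level on the horizontal axis, with 95% intervals, grouped by role. P3h4 and Itga1 in red passed at -1.17 and -1.74, and Pcolce, Sparc and Crtap lie on the same side without passing.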

How the data were processed

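RNA from 3 miR-200 and 3 control cultures was hybridized to Affymetrix mouse arrays, per the labels' protocols. The authors deposited log2 values, 1 per probe set and array, in a table of 45101 probe sets. The sources used here do not give the probe summary or the scaling. The log base was read from the values, and 1578 to 1718 probe sets per array lie exactly at 0. The table holds no detection calls, and the number of arrays limits precision.

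Quantile normalization of the deposited log2 values used limma 3.58.1 (R 4.3.3), after which 64 control probe sets were left out. Gene symbols come from the platform annotation, updated by gene number through RefSeq (34741 of the 34945 probe sets with 1 symbol). Another 932 probe sets have several symbols and 9160 none listed. All 45037 probe sets were fitted with lmFit and eBayes, two-sided, with group as the only term. A run on simulated arrays checked the code. The share of changes missed at the spread of these data is not given here. A fold is given only where the brighter mean is above 5.28, the highest trp control value. Sequences came from the RefSeq tables, and figures were drawn with matplotlib 3.10.9.

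The members, gene lists, alternatives and the arrays that stand apart were chosen with earlier results of these data known. Values of all 6 arrays are given for members past the threshold, for those with an unadjusted p under 0.05 above background, and for 16 measured genes fixed by name, among them the main collagen chains and the enzymes; Col8a1, Col20a1, Crtap, Cd68 and some probe sets were chosen after their values were seen. Of the pathway list, the genes past the threshold and the largest rise and fall of each role among genes above background are named. Alternatives were other scaling, a dim filter, probe set means, other variance models, array weights, a replicate block, and arrays left out.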

Additional observations from a re-analysis of the deposited data

How the results depend on the processing

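The count of 1 member past the threshold, Col14a1, was also found in the deposited values, after centring on array medians, without the dimmest 40% of probe sets, with the variance trend, with probe set means (adjusted over genes, change -1.31 against -2.77) and with the 2-level term. It became 2 with array weights, where Col10a1 joined at -1.38 (adjusted p = 0.0315) with every value under background. It became 0 without control B and miR-200 A, and 0 with the replicate letter as a block. With the replicate block 2 members were higher and 3 lower at an unadjusted p under 0.05 in limma, and Col14a1 had an adjusted p = 0.218. Leaving out 1 array gave 0 to 1 members. Col14a1 then ranged from -3.02 to -2.57. The pathway genes, 2 in the reported setting, became 6 without the dimmest 40%, 6 with the variance trend, 6 with array weights, 0 with the block and 0 without both arrays, and 0 to 2 without 1 array. In the first 2 of these settings the additions were Crtap, Pcolce and Sparc (lower) and Itgb1 (higher). With the block, Itga1 and P3h4 had adjusted p of 0.243 and 0.301. Between groups, arrays A, B and C had deviations that correlated at -0.58, -0.67 and 0.43. Deviations within a group of 3 sum to 0, so these correlations cannot decide whether the letters pair cultures, which the labels do not state. With the block the Col14a1 difference stayed at -2.77 by construction, because each letter holds 1 array of each group. The lost call therefore says nothing about the size of the change. Over all genes the 172 calls became 476 without the dimmest 40%, 494 with the trend, 606 with weights, 268 with probe set means, 480 with the term, 60 without both arrays, 0 with the block and 16 to 185 without 1 array.

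Across 522 values of 35 genes named in the text under alternatives, 465 kept sign and call, 21 lost a call, 16 gained one and 20 changed sign with no call in either setting. The dim filter, variance trend, replicate block and 2-level term leave each difference unchanged by construction, so no sign could change there. Of these genes only Col14a1, Itga1 and P3h4 had a call to lose. Calls were gained by Pcolce in 6 settings, Sparc in 4, Itgb1 in 3, Crtap in 2 and Col10a1 in 1. With probe set means Col12a1 was -0.75, Col1a1 was 0.40, Col5a2 -0.33 and Loxl4 -0.026. With array weights Col1a2 was -0.022 and Col5a2 -0.017. After centring Plod2 was -0.063 and Plod3 -0.046. Without both arrays Col1a2 was -0.057 and Plod2 -0.00099. Without 1 array Col1a2 ranged from -0.043 to 0.126, Col3a1 from -0.304 to 0.195, Col5a2 from -0.090 to 0.128, Plod2 from -0.035 to 0.180, P4ha2 from -0.786 to 0.183 and Col8a1 from -0.136 to 1.05. Fewer arrays or probe sets act in part by construction; otherwise the cause was not tested. Col3a1 and Loxl1 gave no value without the dimmest 40%, which removes them. For 16 members signal under background limits what could be seen.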
